A study of Homo sapiens with 18 samples.

Results

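Untreated cells of Farage and SUDHL6, a pair of human diffuse large B cell lymphoma lines, were compared to find what sets the lines apart before any drug was given. The libraries were chosen by their labels: the 3 Farage and the 3 SUDHL6 libraries of cells kept with DMSO, 6 of the 18 libraries of the series. Of the 23250 genes listed in each library, the 11900 with a level of at least 1 CPM in at least 3 of these 6 libraries were tested. CPM is a gene's read count scaled to the size of its library. The series as a whole holds 3 lymphoma lines, each given DMSO or an inhibitor of BCL6 for 12 h, and asks how BCL6 and the histone methyltransferase EZH2 act together. Both groups used here therefore consist of cells of the line after 12 h of DMSO, the vehicle, and neither received the inhibitor. Each line derives from 1 tumour, so a difference between the lines is a difference between those 2 tumours' descendants and not between classes of lymphoma. The labels do not give the cultures behind the 3 libraries of a line, and the spread that every p-value rests on may therefore be technical.

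Diffuse large B cell lymphoma arises from B cells that have passed through, or been arrested in, the germinal centre, where BCL6 represses genes of activation, differentiation and DNA damage response. B cells leave that state when CD40, the B cell receptor or interferon receptors activate NF-kB, STAT and IRF factors, which raise antigen presentation, costimulation and survival genes. Tumours that resemble germinal centre cells keep the BCL6 programme, and tumours that resemble activated B cells or the related mediastinal and Hodgkin lymphomas carry NF-kB and JAK-STAT activity. SUDHL6 is known as a germinal centre type line with a mutant EZH2. Farage is known as a line that carries Epstein-Barr virus, whose transcripts were not analysed here.

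The listed genes held 24097618, 22668375 and 21826367 reads in Farage and 20150430, 20599310 and 7359083 reads in SUDHL6, so replicate 3 of SUDHL6 was the shallow library. One read is worth 0.0325 to 0.0385 CPM in the other 5 libraries and 0.107 CPM in SUDHL6 replicate 3. On the first principal component, with 95.8% of the variance of the log2 levels, the lines separated completely. The second, with 3%, set SUDHL6 replicate 3 at -29 against 15.9 and 12.5 for its partners, while the Farage libraries lay between -0.2 and 0.5. The Farage libraries lay close together. For many, but not all, results that turn on SUDHL6 replicate 3, values are given below with and without it. That library departed upward for IRF4 (1041 reads) and downward for BACH2 (134 reads), and the part of depth in this was not tested.

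The labels were checked against markers of the cell type. All 8 B cell markers were tested, and their summed level was 4293 to 4464 CPM in the Farage and 7544 to 7946 CPM in the SUDHL6 libraries. Among 24 T cell and NK cell markers 8 had no read in any of the 6 libraries and 18 stayed under 1 CPM in all 6. The sum of that list, 181.5 to 191.6 CPM in Farage and 96.2 to 141.6 CPM in SUDHL6, was mostly LCK, a SRC family kinase of T cells also found in some B cell tumours, at 178 ± 5.39 CPM in Farage and 107 ± 24.6 CPM in SUDHL6. Of 20 myeloid markers 9 were at 0 in all 6 libraries and 17 under 1 CPM, with sums of 6.35 to 7.61 CPM in Farage and 6.31 to 9.09 CPM in SUDHL6. Of 20 stromal, epithelial and endothelial markers 6 were at 0 and 17 under 1 CPM, with sums of 17.4 to 18.8 CPM in Farage and 1.82 to 3.04 CPM in SUDHL6. That difference lay in ACTA2, a smooth muscle actin, and COL1A1, a collagen chain, at 9.13 ± 0.699 CPM and 6.48 ± 0.947 CPM in Farage. The part of such transcripts in the results was not tested. From bulk RNA, fewer cells that express a gene and less RNA per cell cannot be told apart.

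Most genes differed. With limma, a linear model fitted on log2(CPM + 1) over all tested genes, and a Benjamini-Hochberg adjusted p under 0.05, 8966 of 11900 genes (75.3%) were called, 4233 higher in Farage (35.6%) and 4733 lower (39.8%). A difference of at least 2-fold on that scale was held by 2088 genes higher in Farage (17.5%) and 1617 lower (13.6%). For 9441 genes (79.3%) the 3 values of one line did not overlap those of the other, with Farage above in 37.5% and below in 41.8%. Below, library values are given in the order of replicates 1, 2 and 3, means with the SD over n = 3 libraries, and log2 differences as Farage minus SUDHL6 ± SE on log2(CPM + 1), a scale that understates the change of genes with low levels. A gene is called higher or lower where its adjusted p passed the threshold. Because so many genes pass, the size of a difference and the count within a gene list say more than the fact of a call. The counts of every list below are to be read against these shares. The median difference of all tested genes was -0.06, and it moved to 0.02 when libraries were rescaled by the median of their ratios to a common reference (median-of-ratios scaling), so differences of this size cannot be told apart from the scaling. With that scaling 52.1% of the calls were higher in Farage, against 47.2% as deposited.

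**Figure D1:**
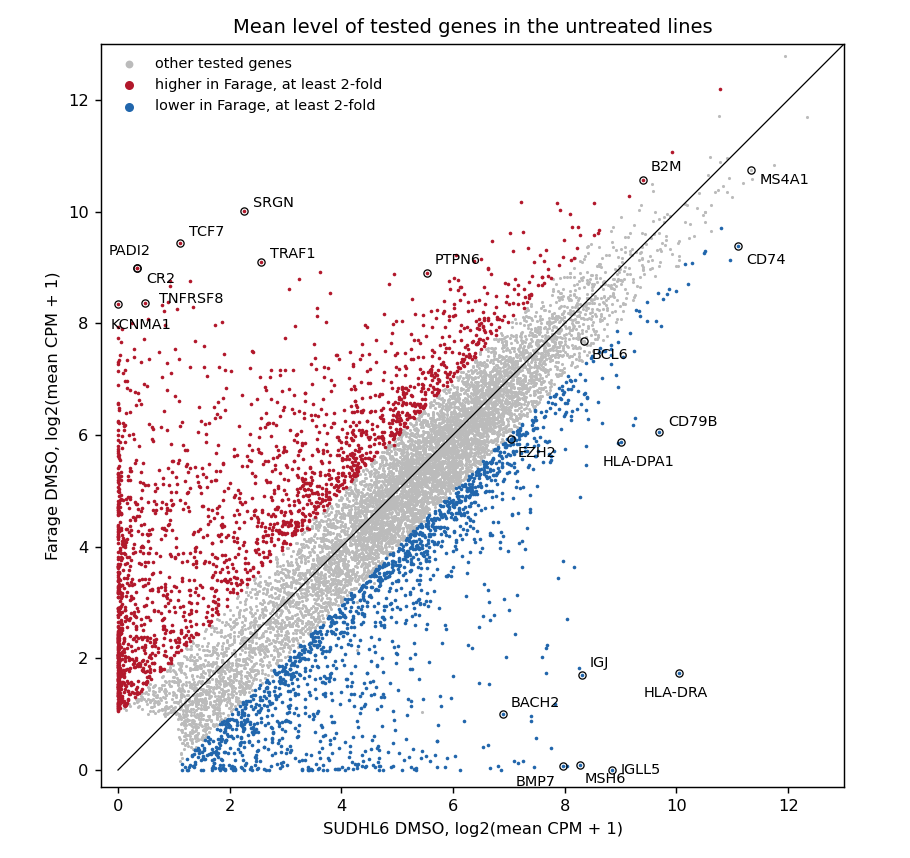
Mean level of each of the 11900 tested genes in the 3 SUDHL6 DMSO libraries (horizontal axis) and the 3 Farage DMSO libraries (vertical axis), both as log2(mean CPM + 1), with the line of equality. The 2088 red genes were called and at least 2-fold higher in Farage, the 1617 blue genes were called and at least 2-fold lower, and circles mark genes named in the text. Genes along the left edge and the lower edge were close to absent in 1 line.

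The largest differences were between expression and near silence. Among genes higher in Farage, PADI2, an enzyme that converts arginine in proteins to citrulline, was at 509, 500.3 and 512 CPM in the 3 Farage libraries and 0.154, 0.227 and 0.428 CPM in SUDHL6 (log2 difference 8.65 ± 0.096, adjusted p = 2.57e-09). CR2, the complement receptor CD21 that Epstein-Barr virus uses to enter B cells, was at 505, 501 and 511 CPM in Farage and 0.308, 0.264 and 0.214 CPM in SUDHL6, a log2 difference of 8.65 ± 0.072 (adjusted p = 2.2e-09). For both genes the values within each line were close, and the lines did not overlap, as in 79.3% of all tested genes. TCF7, a transcription factor of early T cells, stood at 685, 694 and 698 CPM in Farage against 0.963, 0.717 and 1.82 CPM. SRGN, the proteoglycan of secretory granules, stood at 921, 1131 and 1051 CPM against 2.43, 1.96 and 6.96 CPM. The other genes among the 12 largest were KCNMA1, a calcium-activated potassium channel, SPN, which encodes the surface sialoprotein CD43, TNFRSF8, which encodes CD30, ZC3H12C, HOPX, the adhesion receptor gene CD226, FAM129A and the phosphatase gene DUSP4. Their Farage means ran from 213 ± 1.58 CPM for DUSP4 to 431 ± 24.4 CPM for SPN, and their SUDHL6 means were all below 1 CPM.

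Among genes lower in Farage, IGLL5, which lies in the immunoglobulin lambda locus and encodes a product resembling the lambda constant region, had no read in Farage and 500.4, 493 and 380.3 CPM in SUDHL6. That is at least 4400-fold lower in Farage, with the floor set at 3 reads in each Farage library. Its reads can be shared with the near-identical lambda constant genes, so the value is uncertain as a measure of IGLL5 alone. HLA-DRA followed, at 2.76, 1.99 and 2.24 CPM in Farage and 1102, 899.8 and 1175 CPM in SUDHL6 (log2 difference -8.31 ± 0.12, adjusted p = 4.59e-09). MSH6, a subunit of the mismatch recognition complex of DNA repair, was at 0.065, 0.0709 and 0.0723 CPM in Farage and 284, 309 and 328 CPM in SUDHL6 (log2 difference -8.17 ± 0.087, adjusted p = 2.57e-09). Each of the 3 Farage libraries held 2 reads of it. BMP7, a secreted growth factor, CD24, a surface glycoprotein of immature B cells, DEPTOR, an inhibitor of mTOR, the oxysterol-binding protein gene OSBPL10, TUBB2B, ST14, NLRP7, TNS3 and SLC25A27 completed the 12. For CD24 the SUDHL6 libraries differed among themselves, at 322, 312 and 151 CPM, with the low value in replicate 3, and Farage was at 0.0976, 0 and 0.0723 CPM.

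HLA class II genes were the list with the lowest median. Class II molecules are pairs of alpha and beta chains (DR, DQ and DP) that show peptides to helper T cells. The invariant chain CD74 escorts them, DM and DO control peptide loading, and transcription needs the coactivator CIITA together with RFX and NF-Y proteins bound at the promoters. Of 17 tested members 14 were called lower in Farage and 2 higher, with a median log2 difference of -3.14 against -0.06 for all genes. Members named here and below beyond the largest differences of a list were chosen after their values were seen.

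For the alpha chain gene HLA-DRA the values are given above. The beta chain gene HLA-DRB1 was at 2.28, 2.45 and 2.86 CPM in Farage and 247, 253 and 417 CPM in SUDHL6 (log2 difference -6.40 ± 0.20, adjusted p = 1.02e-07). HLA-DRB5 was at 1.01, 0.922 and 0.904 CPM and 155, 158 and 186 CPM (log2 difference -6.42 ± 0.099). DRB genes are so alike, and so variable between people, that reads can be assigned to the wrong copy, and the split between HLA-DRB1 and HLA-DRB5 is uncertain. HLA-DQA1 stood at 3.15, 4.33 and 3.22 CPM in Farage against 186, 184 and 235 CPM, and HLA-DQB1 at 5.37, 5.5 and 5.61 CPM against 272, 242 and 269 CPM. HLA-DPA1 had the smallest difference of these 3 alpha chain genes, at 56, 58.5 and 57.3 CPM against 489.6, 511 and 540.4 CPM (log2 difference -3.14 ± 0.061). HLA-DPB1, its partner, stood at 12.7, 13.2 and 11.4 CPM against 253, 252 and 242 CPM (log2 difference -4.22 ± 0.071).

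The loading genes were all called lower in Farage, by unlike amounts. HLA-DOA and HLA-DOB, the subunits of DO, were lower, with log2 differences of -3.32 ± 0.097 and -3.61 ± 0.19. For the DM subunits HLA-DMA and HLA-DMB the differences were -0.91 ± 0.10 and -0.67 ± 0.13, at 175, 203 and 189.8 CPM of HLA-DMB in Farage against 299.7, 254 and 359 CPM. CD74 was at 672, 676 and 654 CPM in Farage and 1930.3, 2326 and 2309 CPM in SUDHL6 (log2 difference -1.71 ± 0.097, adjusted p = 2.59e-06). All of these groups stayed apart without overlap, as did those of 79.3% of all tested genes.

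The regulators did not share one direction. CIITA was higher in Farage, at 251, 234 and 242 CPM against 42.5, 50.1 and 51.4 CPM (log2 difference 2.32 ± 0.084, adjusted p = 2.19e-07). Reads of CIITA add up all its promoters and do not show whether the product is full length. RFX5 overlapped between the lines, at 163, 168 and 164 CPM in Farage and 177, 180.2 and 152 CPM in SUDHL6 (log2 difference -0.04 ± 0.077, adjusted p = 0.679). RFXAP and RFXANK were lower in Farage, with log2 differences of -0.91 ± 0.095 and -0.28 ± 0.074, and RFXANK was no longer called after median-of-ratios scaling (adjusted p = 0.0546). CTSS, the protease that trims the invariant chain, was higher, at 162 ± 9.71 CPM in Farage against 84.2 ± 9.05 CPM.

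Class II promoters are known to share an element, the Y box, an inverted CCAAT box bound by NF-Y. To show it, the 150 bases before the gene start are printed for 6 class II genes of the list with a promoter entry and a match, from RefSeq on GRCh38.p14, 5′ to 3′ along the gene's strand, with the letters CCAAT or ATTGG (the same box on the other strand) in capitals. HLA-DRB1 is chr6:32589849-32589998 on the minus strand, HLA-DQB1 chr6:32666658-32666807 (minus), HLA-DPB1 chr6:33075840-33075989 (plus), HLA-DOA chr6:33009592-33009741 (minus), HLA-DOB chr6:32817003-32817152 (minus) and HLA-DMA chr6:32953098-32953247 (minus).
HLA-DRB1: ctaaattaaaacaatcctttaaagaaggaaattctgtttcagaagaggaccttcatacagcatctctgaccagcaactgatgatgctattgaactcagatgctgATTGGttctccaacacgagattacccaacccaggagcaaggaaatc
HLA-DQB1: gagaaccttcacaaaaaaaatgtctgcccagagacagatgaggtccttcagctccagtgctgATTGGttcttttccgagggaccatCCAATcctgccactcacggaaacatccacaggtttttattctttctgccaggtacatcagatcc
HLA-DPB1: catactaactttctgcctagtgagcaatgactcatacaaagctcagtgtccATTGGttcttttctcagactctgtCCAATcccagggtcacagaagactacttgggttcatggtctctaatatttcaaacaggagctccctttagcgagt
HLA-DOA: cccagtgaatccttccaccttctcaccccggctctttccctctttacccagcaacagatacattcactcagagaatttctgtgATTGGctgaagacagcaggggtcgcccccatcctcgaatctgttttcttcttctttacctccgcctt
HLA-DOB: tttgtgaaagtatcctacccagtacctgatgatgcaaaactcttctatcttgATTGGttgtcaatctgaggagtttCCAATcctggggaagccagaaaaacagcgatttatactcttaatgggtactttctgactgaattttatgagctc
HLA-DMA: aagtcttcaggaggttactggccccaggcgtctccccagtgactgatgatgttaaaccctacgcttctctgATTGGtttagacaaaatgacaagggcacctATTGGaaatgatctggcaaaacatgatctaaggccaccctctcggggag
In either orientation the box occurred in 11 of the 14 class II list genes with an entry (78.6%). It occurred in 24.2% of the 26246 promoters of the same length that were searched, and in 28% of those of tested genes. Class II genes are known for this box, so the excess describes the list and not the difference between the lines. In the printed windows ATTGG began 46 bases before the gene start in HLA-DRB1, 67 in HLA-DOA, and 79 and 49 in HLA-DMA. For HLA-DQB1, HLA-DOB and HLA-DPB1 ATTGG began 88, 98 and 99 bases before the start, and CCAAT 64, 74 and 75. HLA-DMA, whose difference was small, carries the letters as do the strongly lower chains. These sequences are the reference and not those of the lines, and the set was chosen after the values were seen.

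**Figure D2:**
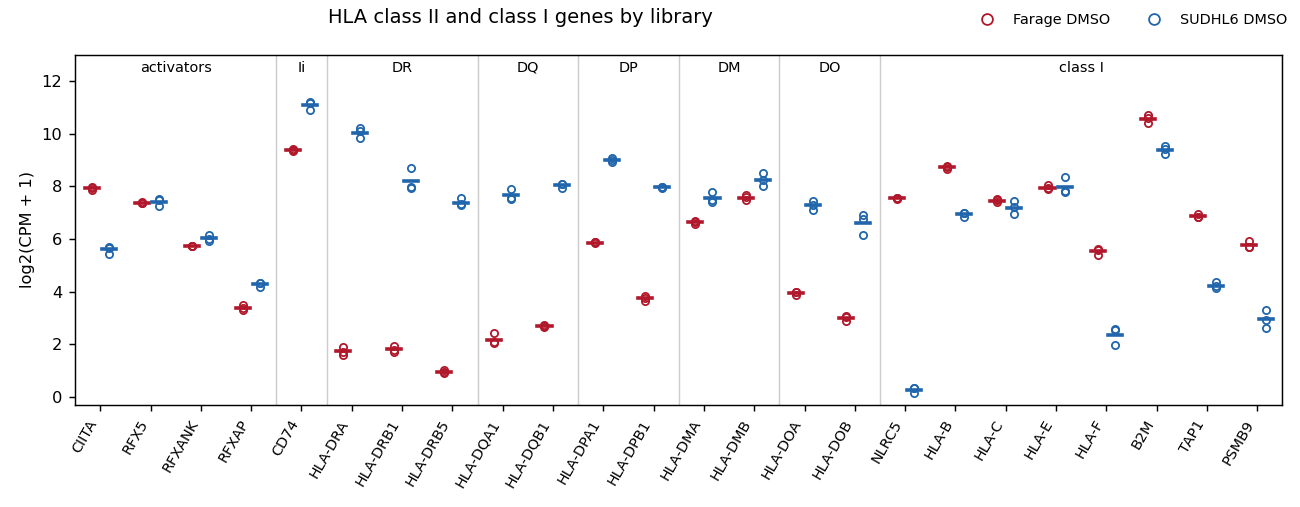
Level of HLA class II and class I genes as log2(CPM + 1) in each Farage DMSO (red) and SUDHL6 DMSO (blue) library, with circles for the 3 libraries per line and bars for their mean; Ii marks the invariant chain gene CD74. The DR, DQ, DP, DM and DO chains and CD74 lie lower in Farage, while CIITA, NLRC5, HLA-B, HLA-F, TAP1 and PSMB9 lie higher.

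Class I genes went the other way. Class I heavy chains pair with B2M and show peptides made by the proteasome and carried by the TAP transporter to cytotoxic T cells. NLRC5, a relative of CIITA, is their transactivator. Of 20 tested members 13 were called higher in Farage and 1 lower, with a median log2 difference of 0.89. NLRC5 was at 185, 183 and 186 CPM in Farage and 0.27, 0.264 and 0.107 CPM in SUDHL6 (log2 difference 7.26 ± 0.092, adjusted p = 2.8e-09), where SUDHL6 holds 7, 7 and 1 reads. The heavy chain gene HLA-B stood at 425, 432 and 400.4 CPM against 124, 127 and 113 CPM, and HLA-F at 47.2, 47.8 and 41.2 CPM against 4.78, 4.95 and 2.89 CPM. HLA-C was not called, with a log2 difference of 0.27 ± 0.12 (adjusted p = 0.0857). Heavy chain genes are alike and vary between people, so their reads can be lost or shared. B2M, which has no such relatives, was at 1369.6, 1653 and 1527 CPM in Farage and 687, 596 and 741 CPM in SUDHL6 (log2 difference 1.17 ± 0.11). The transporter gene TAP1 was higher by 2.64 ± 0.080 and the immunoproteasome subunit gene PSMB9 by 2.82 ± 0.18. The 1 member called lower was PSMB10, at 58 ± 2.97 CPM in Farage and 71.7 ± 1.91 CPM in SUDHL6, and the number called lower was 2 without SUDHL6 replicate 1 or 3.

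Interferon-stimulated genes were higher in Farage as a list. Interferons act through STAT and IRF factors, which bind promoter elements built of GAAA repeats. Of 44 listed members 39 were tested, of which 32 were called higher and 3 lower. All 32 were at least 2-fold higher, against 17.5% of all genes, and the median was 2.56. That median was 4.92 with edgeR on the recovered reads and 2.04 with no filter. IFI27, IFI44, IFIT1, IFIT3 and RSAD2 were at most 1.25 CPM in the 6 libraries and not tested. STAT2, a factor that type I interferon activates, went against the list, at 104, 102 and 108 CPM against 126, 148 and 120.5 CPM (log2 difference -0.32 ± 0.086, adjusted p = 0.0102). IRF1, a factor induced by interferon gamma, stood at 95.2, 105 and 97.5 CPM against 3.7, 5.21 and 4.93 CPM.

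PARP14, a mono-ADP-ribosyltransferase, was at 159, 152 and 161 CPM in Farage and 0.308, 0.378 and 0.321 CPM in SUDHL6 (log2 difference 6.89 ± 0.083, adjusted p = 2.57e-09). Its neighbours PARP9 and DTX3L, whose products form a ubiquitin ligase complex, differed by 6.05 ± 0.089 and 6.24 ± 0.10, with SUDHL6 levels of 0.0868 and 0.301 CPM. PARP15, which lies between DTX3L and PARP14 on chromosome 3, was at 113.8 CPM in Farage and 0.122 CPM in SUDHL6, whereas the genes on either side of the 4, KPNA1 and HSPBAP1, were at 128.2 and 13.9 CPM in Farage and 102.7 and 10.4 CPM in SUDHL6. IFIH1, the cytosolic RNA sensor MDA5, was at 70.2, 65.4 and 66.6 CPM against 0.0385, 0.0755 and 0.107 CPM, which is 1, 2 and 1 reads in SUDHL6. GBP1 and GBP4, guanylate-binding proteins that attack intracellular pathogens, had no read in SUDHL6 and 35.3, 34.2 and 34.6 CPM and 58, 61.5 and 57.1 CPM in Farage. The antiviral GTPase MX1 stood at 82.9, 77.5 and 73.9 CPM against 1.66, 1.55 and 3.75 CPM, but its relative MX2 was lower in Farage, at 36.9, 40.9 and 36.4 CPM against 60.4, 68.6 and 78.5 CPM (log2 difference -0.84 ± 0.10). OAS2, an oligoadenylate synthetase, was lower at a log2 difference of -0.23, and this call was lost in 9 of 14 alternatives, with median-of-ratios scaling among them (adjusted p = 0.219).

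Elements of the interferon type are shown for 3 genes with large differences and a match, chosen with the values known, over the 150 bases before the gene start from RefSeq on GRCh38.p14. Capitals mark a match to GAAA, any 2 bases and GAAA again, or to the same element read on the other strand (TTTC, any 2 bases, TTTC). GBP1 is chr1:89065209-89065358 (minus strand), PARP14 chr3:122680689-122680838 (plus) and IFIH1 chr2:162318685-162318834 (minus).
GBP1: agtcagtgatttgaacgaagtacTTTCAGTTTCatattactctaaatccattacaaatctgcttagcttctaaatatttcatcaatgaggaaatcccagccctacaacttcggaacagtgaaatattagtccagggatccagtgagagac
PARP14: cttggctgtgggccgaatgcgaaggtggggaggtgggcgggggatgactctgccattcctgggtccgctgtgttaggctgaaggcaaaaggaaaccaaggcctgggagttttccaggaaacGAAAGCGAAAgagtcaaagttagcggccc
IFIH1: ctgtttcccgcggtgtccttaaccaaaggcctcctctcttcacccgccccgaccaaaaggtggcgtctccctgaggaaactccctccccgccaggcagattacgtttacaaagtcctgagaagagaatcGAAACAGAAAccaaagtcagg
The match lay 127 bases before the start in GBP1, 29 in PARP14 and 21 in IFIH1. Of the 33 listed interferon-stimulated genes with an entry 19 had a match (57.6%), against 1.78% of the 26246 promoters searched. The list was built from genes known to respond to interferon, so the excess describes the list and not the difference between the lines. Among genes detected in Farage only, described below, 6 of 144 promoters matched (4.17%), with GBP1 and IFIH1 printed above among them. None of 29 matched among genes detected in SUDHL6 only, too few promoters to show a difference at such low shares.

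NF-kB pathway genes were also higher in Farage. NF-kB dimers of REL, RELA, RELB, NFKB1 and NFKB2 are held in the cytoplasm by inhibitors such as NFKBIA until IKK kinases are activated, and the inhibitors and the deubiquitinases TNFAIP3 and CYLD are themselves targets that close the circuit. Of 21 subunits and inhibitors 14 were called higher and 4 lower, with a median of 0.90. TNFAIP3 was at 455, 431 and 434 CPM in Farage and 6.7, 9.17 and 9.42 CPM in SUDHL6 (log2 difference 5.56 ± 0.12, adjusted p = 1.62e-08). CYLD stood at 247, 233 and 248 CPM against 26, 21.7 and 15.5 CPM, and NFKBIA at 219, 229 and 222 CPM against 29.9, 39.3 and 42.3 CPM. The precursor gene NFKB1 was at 299, 298 and 306 CPM in Farage and 44.2, 47.9 and 62.3 CPM in SUDHL6, and NFKB2 at 515, 512 and 501 CPM and 98, 119 and 75 CPM. Other subunits differed less: RELB was higher by 0.90 ± 0.12, and RELA was lower with a log2 difference of -0.30. REL was not called over all libraries (0.60 ± 0.28, adjusted p = 0.0889), and SUDHL6 replicate 3 stood at 128.4 CPM against 61.4 and 56.4 CPM in its partners. Without that library the REL difference was 0.97 (adjusted p = 2.16e-06). The kinase subunit genes IKBKB and IKBKG were lower in Farage, with log2 differences of -1.32 and -0.35, as was the inhibitor gene NFKBIB at -0.87. IKBKG was not called after median-of-ratios scaling (adjusted p = 0.0556) or without Farage replicate 1 or 2.

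Genes that respond to NF-kB and CD40 formed a list of 27 tested members, of which 21 were called higher and 1 lower, with a median of 2.51. The chemokine receptor gene CCR7, which guides B cells to T cell zones, was at 301, 307 and 304 CPM in Farage and 1.31, 0.868 and 1.07 CPM in SUDHL6 (log2 difference 7.20 ± 0.095, adjusted p = 3.05e-09). TRAF1, an adaptor of TNF receptors, stood at 522, 565 and 553 CPM against 5.35, 5.66 and 3.64 CPM. EBI3, a cytokine subunit first found in virus-infected B cells, was at 108, 115 and 103 CPM against 0.308, 0.415 and 0 CPM. BCL2A1, a survival protein, was at 227, 266 and 251 CPM against 0.963, 1.17 and 4.82 CPM, and FAS, the death receptor, at 153, 159 and 153 CPM against 0.847, 0.831 and 0.857 CPM. In all of these every Farage library lay above every SUDHL6 library, as in 37.5% of all tested genes. LTB, a lymphotoxin chain, was the member called lower, and its SUDHL6 libraries disagreed at 39.3, 83.6 and 221 CPM against 18.6, 18.9 and 17.1 CPM in Farage (log2 difference -2.25 ± 0.53, adjusted p = 0.00581). Without replicate 3 of SUDHL6 the LTB difference was -1.61, and without replicate 1 it was -2.84.

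Genes reported to be induced in B cells by Epstein-Barr virus overlap these lists. Of 24 tested members 21 were called higher in Farage and 1 lower, with a median of 3.41. SLAM family receptors bind one another between lymphocytes, and the list holds 11 receptors and adaptors. The 6 that were tested were called higher, with a median of 2.29. CD244, SLAMF8, SLAMF9, SH2D1A and SH2D1B were at most 1.34 CPM in the 6 libraries and not tested, and with no filter the median was 0.91. SLAMF7 was at 416, 438 and 445 CPM in Farage and 1.39, 1.06 and 1.93 CPM in SUDHL6, SLAMF1 at 288 ± 4.54 CPM and 26.1 ± 2.92 CPM, and CD84 at 120.2 ± 2.38 CPM and 21.4 ± 4.93 CPM.

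Genes of mediastinal and Hodgkin lymphoma had 15 of 18 tested members called higher in Farage and 1 lower, with a median of 2.98. These lymphomas are known for CD30, for JAK-STAT activity and for molecules that blunt T cells. TNFRSF8, which encodes CD30, was at 335, 333 and 321 CPM in Farage and 0.116, 0.113 and 0.964 CPM in SUDHL6 (log2 difference 7.94 ± 0.21, adjusted p = 4.97e-08). CCL22, a chemokine that attracts regulatory T cells, stood at 23.4, 23.4 and 23 CPM against 0, 0 and 0.107 CPM, and CD274, which encodes PD-L1, at 17.8, 17.2 and 17.5 CPM against 0.077, 0.113 and 0.321 CPM. JAK2 was at 84.7, 75.9 and 88.1 CPM against 8.59, 6.31 and 8.78 CPM. IL4I1, a secreted amino acid oxidase, had a wide spread in SUDHL6, at 0.116, 0.566 and 8.46 CPM with the highest value in replicate 3, against 155, 134 and 135 CPM in Farage (log2 difference 5.80 ± 0.71, 6.75 without that library and 5.2 without replicate 1). STAT6 was the member called lower, at 393, 423 and 401 CPM against 499, 513 and 438 CPM (adjusted p = 0.0232), but not after median-of-ratios scaling (adjusted p = 0.0772) or without 4 of the 6 libraries in turn. The number of members called lower was 0 without Farage replicate 1 or 3 or SUDHL6 replicate 1 or 2, and 2 without SUDHL6 replicate 3. Of the 25 listed members 7 were under 1 CPM in all 6 libraries, among them CCL17, GATA3 and MAL.

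Cytokine receptor and JAK-STAT genes had 20 of 29 tested members called higher and 5 lower, with a median of 1.65 that was 0.88 over the members with a mean CPM of at least 5. IL2RB, a signalling chain of the receptors for IL-2 and IL-15, was at 163, 159.8 and 162 CPM in Farage and had 1, 0 and 0 reads in SUDHL6. STAT5A stood at 91.9, 100.4 and 96.2 CPM against 1.27, 1.51 and 0.643 CPM, STAT4 at 42.2, 49.1 and 46 CPM against 0.077, 0 and 0 CPM, and STAT3 at 236, 251 and 244 CPM against 62.7, 56.3 and 51.6 CPM. Lower in Farage were IL12RB1, the kinase gene PIM1 and IFNGR2, a chain of the interferon gamma receptor, with log2 differences of -0.94, -0.87 and -0.65. Of 30 cytokine and chemokine genes only 15 could be tested, and 11 were called higher and 1 lower. Their median was 2.04, but 0.65 with no filter. IL32 was at 334 ± 21.8 CPM in Farage and 0.862 ± 0.416 CPM in SUDHL6.

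Costimulatory and TNF receptor genes had 17 of 25 called higher and 3 lower, with a median of 1.92. TNFRSF9, which encodes the T cell costimulator 4-1BB, was at 153, 159.6 and 157 CPM in Farage with no read in SUDHL6, at least 853-fold higher with the floor set at 3 reads per SUDHL6 library. TNFRSF14, a receptor often lost in germinal centre lymphomas, stood at 108, 105 and 106 CPM against 0.462, 0.264 and 0.107 CPM. CD40, the receptor for T cell help, was at 162, 177 and 172 CPM against 40.0, 45 and 59.4 CPM. Members lower in Farage were receptors for the BAFF and APRIL cytokines and CD27. TNFRSF13B, which encodes TACI, was at 0, 0.0355 and 0.0362 CPM in Farage and 22.6, 31.4 and 64.9 CPM in SUDHL6. TNFRSF17, which encodes BCMA, was at 9.62 ± 0.38 CPM in Farage and 24.8, 30.6 and 64.3 CPM in SUDHL6. CD27, a marker of memory B cells, was at 45.1 ± 1.77 CPM and 76.6 ± 12.1 CPM. Toll-like receptor genes did not share this direction, with 4 of 16 higher and 8 lower, against 35.6% and 39.8% of all tested genes. TLR2 was at 9.64 ± 0.834 CPM in Farage and 0.0252 ± 0.0436 CPM in SUDHL6, whereas TLR9, the sensor of CpG DNA, was at 14.5 ± 1.91 CPM and 65.3 ± 11.1 CPM.

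**Figure D3:**
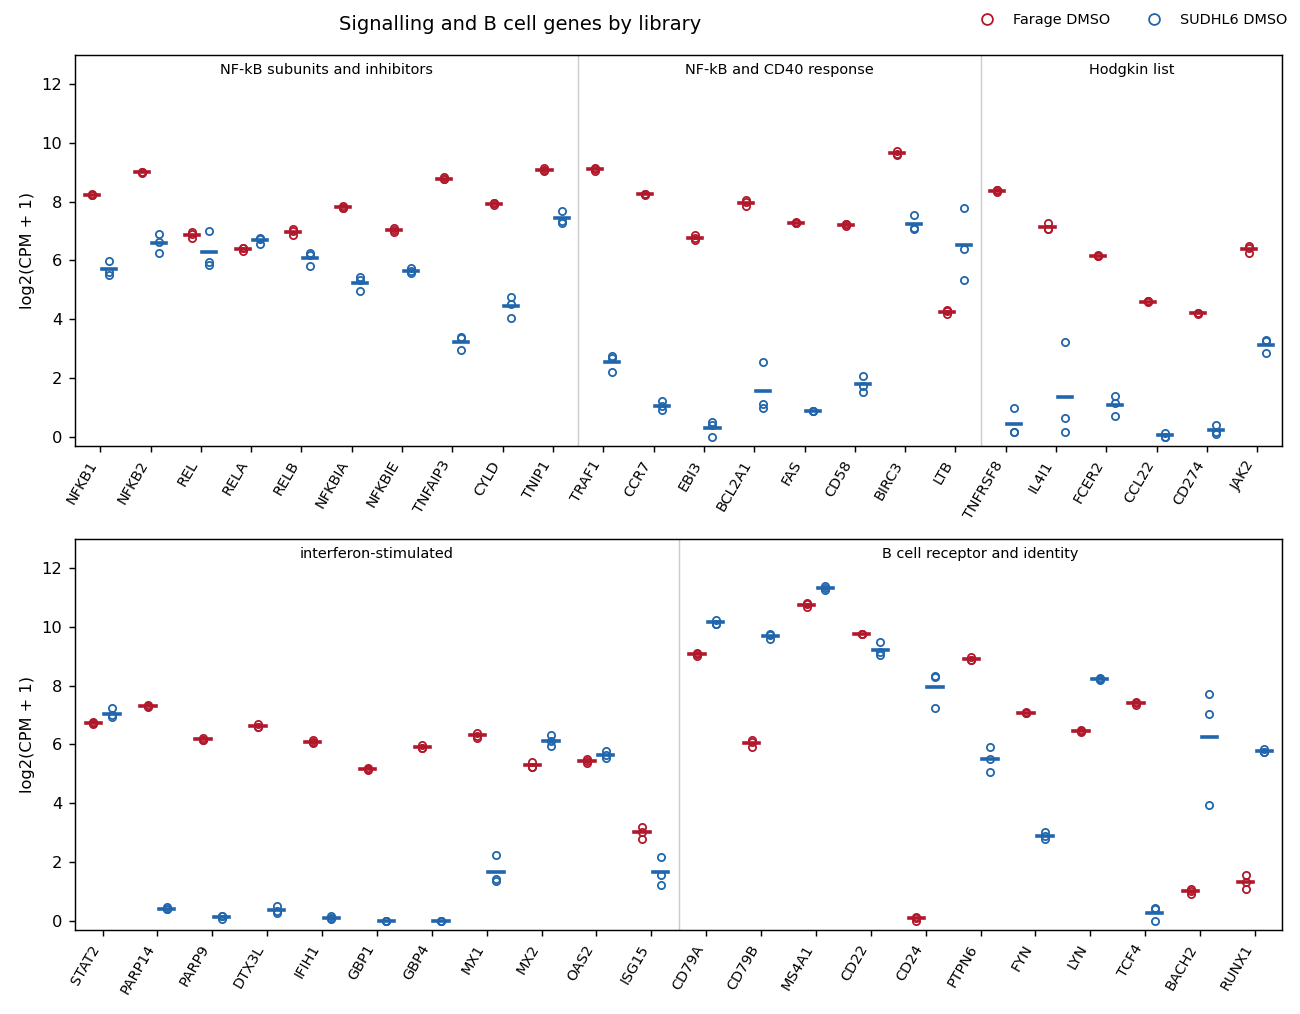
Level as log2(CPM + 1) of NF-kB, CD40 response, Hodgkin lymphoma, interferon and B cell genes in each Farage DMSO (red) and SUDHL6 DMSO (blue) library, with circles for the 3 libraries per line and bars for their mean. Red lies above blue for most signalling genes, while RELA, LTB, STAT2, MX2, OAS2, CD79A, CD79B, MS4A1, CD24, LYN, BACH2 and RUNX1 show the reverse.

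Surface markers and receptor chains of B cells were lower in Farage for most members. Of 19 tested genes 13 were called lower and 5 higher, with a median of -1.15. CD79A and CD79B are the signalling chains of the B cell receptor, and they did not differ alike. CD79A was at 531, 549 and 516 CPM in Farage and 1100.0, 1198 and 1098 CPM in SUDHL6 (log2 difference -1.09 ± 0.073). CD79B was at 59.3, 70.7 and 66.9 CPM against 862, 848 and 761 CPM (log2 difference -3.63 ± 0.086, adjusted p = 2.66e-08). MS4A1, which encodes CD20, stood at 1641, 1789 and 1736 CPM against 2701, 2429.9 and 2578 CPM, a small difference of -0.58 ± 0.095. The members called higher included CR2 and LAPTM5, a lysosomal protein that lowers receptor levels, at 2148 ± 58.2 CPM in Farage and 969 ± 92.1 CPM in SUDHL6. CD22, an inhibitory receptor, was higher by 0.54 ± 0.12 and PAX5, the factor that maintains B cell identity, by 0.18 ± 0.064. The call of PAX5 was lost without SUDHL6 replicate 1 (adjusted p = 0.0541), without replicate 3 (0.059) and without Farage replicate 1 or 3.

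Downstream of the receptor, 14 of 24 tested signalling genes were called higher, 5 lower and 5 not called, with a median of 0.63. The SRC family kinases went opposite ways. FYN was at 132, 135 and 136 CPM in Farage and 7.13, 5.93 and 6.32 CPM in SUDHL6 (log2 difference 4.18 ± 0.082), and LYN, the main such kinase of B cells, at 83.8, 89.4 and 87.4 CPM and 302, 294 and 290.1 CPM (log2 difference -1.75 ± 0.056). PTPN6, the phosphatase SHP-1 that damps the receptor, stood at 461, 495 and 465 CPM against 44.7, 32.1 and 58.9 CPM. PIK3CD, a catalytic subunit of PI3 kinase, was at 501 ± 12.2 CPM in Farage and 97.9 ± 25.2 CPM in SUDHL6. SYK and BTK, the kinases that act after LYN, were lower, with log2 differences of -0.71 ± 0.081 and -0.45 ± 0.062. Not called were the adaptor gene BLNK at 112 ± 3.62 CPM in Farage and 112 ± 9.79 CPM in SUDHL6, PLCG2 at 502 ± 1.45 CPM and 507 ± 26.1 CPM, PRKCB at 26.8 ± 0.578 CPM and 26.1 ± 6.14 CPM, INPP5D at 345 ± 3.15 CPM and 367 ± 26.1 CPM, and VAV1 at 108 ± 4.24 CPM and 121 ± 6.01 CPM. Their log2 differences lay between -0.15 for VAV1 and 0.06 for PRKCB.

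B cell transcription factors differed in both directions, with 11 of 25 called higher and 6 lower, against 35.6% and 39.8% of all tested genes. Their median of 0.17 was 0.04 without SUDHL6 replicate 3 and 0.28 without replicate 2. TCF4, an E protein of germinal centre and plasmacytoid cells, was at 167, 163 and 171 CPM in Farage and 0.308, 0.34 and 0 CPM in SUDHL6 (log2 difference 7.12 ± 0.13, adjusted p = 8.91e-09). MEF2C, which acts after the B cell receptor, stood at 270.5, 249 and 257 CPM against 2.73, 2.68 and 2.46 CPM. EBF1, an early B cell factor, was at 91.1, 88.2 and 89.4 CPM against 17.8, 18.5 and 18.7 CPM. IRF4, a factor of plasma cells and activated B cells, was at 342, 324 and 339 CPM in Farage and 26.1, 31.2 and 111 CPM in SUDHL6, and its log2 difference of 2.86 ± 0.48 was 3.51 without replicate 3. RUNX1, a factor of blood stem cells, went the other way, at 1.5, 1.14 and 1.92 CPM against 52.1, 55.9 and 52.3 CPM. BACH2, a repressor of plasma cell fate, was at 1.11, 0.887 and 1.01 CPM in Farage and at 211, 131 and 14.3 CPM in SUDHL6. Its SUDHL6 libraries span more than 10-fold, and the log2 difference of -5.24 ± 0.87 became -6.38 without replicate 3 and -4.49 without replicate 1. FOXP1, which is also on the list of activated B cell lymphoma genes below, was lower in Farage. It was at 1.43, 1.1 and 1.3 CPM in Farage and 26.5, 26.4 and 8.46 CPM in SUDHL6. Without SUDHL6 replicate 3, the number of factors called lower was 10 in place of 6.

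Lists for the classes of lymphoma did not give one answer. Of 24 tested germinal centre genes 9 were called higher in Farage and 12 lower, against 35.6% and 39.8% of all tested genes. The median of that list was -0.24, and it was -0.57 without SUDHL6 replicate 3 and -0.11 without replicate 2. MME, which encodes the germinal centre marker CD10, was at 17.3, 15.4 and 16 CPM against 171, 177 and 98.5 CPM, and MYBL1, a factor of centroblasts, at 14.5, 13.7 and 14.1 CPM against 52.4, 85 and 51 CPM. LMO2, another marker of that class, was higher in Farage at 276, 306 and 287 CPM against 33.8, 42.5 and 91.1 CPM, as was DENND3, at 284, 283 and 274 CPM against 4.58, 5.36 and 22.7 CPM. For DENND3 replicate 3 of SUDHL6 was the high library, and the difference of 4.90 ± 0.50 was 5.56 without it. Of 21 tested genes of activated B cell lymphoma 15 were called higher and 4 lower, with a median of 1.59. CFLAR, an inhibitor of death receptor signalling, was at 209, 212 and 213 CPM in Farage and 7.67, 5.81 and 7.39 CPM in SUDHL6. BMF, listed there too although it promotes cell death, was lower, at 115 ± 2.57 CPM against 492 ± 104 CPM. Plasma cell genes had 5 of 13 called higher and 8 lower. IGJ, the joining chain of secreted antibody, was at 2.18, 2.23 and 2.39 CPM in Farage and 554, 341 and 52.5 CPM in SUDHL6, where the log2 difference of -6.05 ± 0.76 was -7.06 without replicate 3 and -5.37 without replicate 1. PRDM1, the repressor that starts plasma cell fate, had no read in SUDHL6 and 2.96, 2.41 and 3.11 CPM in Farage.

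The genes in the title of the series were compared next. BCL6 was at 207, 205 and 203 CPM in Farage and 305, 409 and 262 CPM in SUDHL6 (log2 difference -0.64 ± 0.15, adjusted p = 0.00526), so the Farage libraries lay below all 3 SUDHL6 libraries, which themselves spread widely. Farage lay wholly below SUDHL6 in 41.8% of all tested genes. EZH2 was at 60.2, 59 and 60.4 CPM against 113, 126 and 149.8 CPM (log2 difference -1.09 ± 0.10, adjusted p = 3.59e-05). CBX8, a chromodomain subunit of Polycomb complex 1, stood at 3.48, 4.22 and 3.54 CPM against 12.8, 16.3 and 12.6 CPM (log2 difference -1.65 ± 0.13, adjusted p = 1.45e-05). BCOR, the corepressor that joins BCL6 to a variant of that complex, overlapped, at 74.4, 71.1 and 72.1 CPM against 83.6, 79.3 and 64.7 CPM (log2 difference -0.06 ± 0.099, adjusted p = 0.626).

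Polycomb partners showed no common direction. In complex 2, which methylates histone H3, 4 of 13 genes were called higher and 4 lower. The shares over all tested genes were 35.6% and 39.8%. SUZ12 and EED, the core partners of EZH2, were higher by 0.31 ± 0.064 and 0.47 ± 0.11, and EZH1, its paralogue, was lower with a log2 difference of -0.83. In complex 1 and the BCOR complex 10 of 23 were called higher and 8 lower, near the shares of all tested genes. Several paralogues went opposite ways. CBX2 was at 6.67, 6.46 and 6.22 CPM in Farage and 47.4, 58.3 and 53.2 CPM in SUDHL6, and CBX7 at 34.6, 34.4 and 34 CPM and 11.4, 10.2 and 7.39 CPM. PCGF5, a subunit of a variant complex, stood at 145, 147 and 155 CPM against 19.8, 15.1 and 17.5 CPM, RYBP at 72.4 ± 0.0447 CPM against 22.3 ± 2.31 CPM, and KDM2B, which brings the BCOR complex to CpG islands, at 358 ± 14 CPM against 124 ± 6.3 CPM. RING1, a ubiquitin ligase of the complex, was lower, at 34.2 ± 0.514 CPM against 88.1 ± 9.84 CPM. HOX genes, classic Polycomb targets, were barely expressed: 27 of 39 stayed under 1 CPM in all 6 libraries and 11 could be tested, with 2 called higher and 6 lower. Without SUDHL6 replicate 2 the number called higher was 4. HOXA10, the member with the largest difference, was at 6.11, 6.38 and 6.04 CPM in Farage with no read in SUDHL6.

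BCL6 corepressors had 6 of 18 called higher and 7 lower, near the shares of all tested genes (35.6% and 39.8%). HDAC9 was at 0.161 ± 0.0476 CPM in Farage and 12.6 ± 8.01 CPM in SUDHL6, with a log2 difference of -3.29 ± 0.51 that was -3.97 without SUDHL6 replicate 3, and GPS2, a subunit of the NCOR complex, at 23.7 ± 1.06 CPM and 75.2 ± 2.12 CPM. Known target genes of BCL6 repression were higher in Farage for most: 19 of 23 tested were called higher and 3 lower, with a median of 1.93. CDKN1A, which encodes the cell cycle inhibitor p21, was at 115, 115 and 107 CPM in Farage and 5.01, 6.53 and 10.6 CPM in SUDHL6 (log2 difference 3.81 ± 0.22). Lower were MYC at 175, 189 and 169 CPM against 349, 361 and 318 CPM, CXCR4, the receptor that places cells in the dark zone of the germinal centre, at 48.3 ± 0.741 CPM against 177 ± 47.5 CPM, and the acetyltransferase gene EP300 at 154 ± 8.63 CPM against 279 ± 28.5 CPM. Several of these targets also stand in the NF-kB list, so the lists are not separate evidence.

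DNA methylation genes were mixed, with 4 of 14 higher and 7 lower, against 35.6% and 39.8% of all tested genes. ZBTB38, which binds methylated DNA, was at 476, 447 and 487 CPM in Farage and 13.4, 13.8 and 62.5 CPM in SUDHL6, and its difference of 4.31 ± 0.53 was 5.01 without replicate 3. TET2, which oxidises methylcytosine, stood at 57.8 ± 3.79 CPM against 14.9 ± 1.62 CPM. UHRF1, which maintains methylation after replication, was lower at 24.8 ± 2.09 CPM against 67.5 ± 20.2 CPM, and the methyltransferase gene DNMT3B was at 0.668 ± 0.109 CPM against 6.67 ± 2.41 CPM.

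The BCL2 family, which holds genes that protect from death and genes that promote it, had 8 of 14 tested members called higher in Farage and 4 lower. Over all tested genes the shares were 35.6% and 39.8%. Beside BCL2A1, BCL2 itself was at 320.2, 304 and 322 CPM in Farage and 241, 195 and 147 CPM in SUDHL6, and BCL2L1, a close relative, at 127 ± 4.53 CPM and 52.3 ± 11.4 CPM. Of the members that promote death, BIK was higher, at 77.9 ± 6.55 CPM against 4.93 ± 1.17 CPM. BID was higher too, at 79.9 ± 7.7 CPM in Farage against 7.67, 7.44 and 17.8 CPM in SUDHL6. BCL2L11, which encodes BIM, was lower, at 22, 20.8 and 23.1 CPM against 48.9, 48.6 and 67.3 CPM. CCND1, a G1 cyclin that normal B cells hardly express, was at 40.2, 36.2 and 36.6 CPM in Farage and 0.077, 0.302 and 0 CPM in SUDHL6.

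Early response genes of the MAP kinase and AP-1 pathways had 18 of 25 called higher and 3 lower, with a median of 2.06. DUSP4, a phosphatase of MAP kinases, was at 215, 212 and 212 CPM in Farage with no read in SUDHL6, at least 1160-fold higher with the floor of 3 reads per library. EGR2 stood at 91.6, 97.7 and 94.9 CPM against 2.12, 2.15 and 3.11 CPM, and JUNB, an AP-1 subunit strong in Hodgkin cells, at 160.3, 148 and 119 CPM against 6.32, 11.3 and 5.89 CPM. DUSP5, MAFK and MAFG were the members called lower, at -1.50, -1.21 and -0.33 on the log2 scale, and the values of MAFG overlapped. The call of MAFG was lost in 9 of 14 alternatives. Without SUDHL6 replicate 3 the number called lower was 5.

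Genes of proliferation were lower in Farage by small amounts. Of 28 DNA replication genes 14 were called lower and 1 higher with a median of -0.44, which was -0.23 without SUDHL6 replicate 3 and -0.64 without replicate 1. Of 25 mitosis genes 18 were lower and 2 higher with a median of -0.43. Ribosome biogenesis genes that MYC drives had 14 of 20 called lower and 2 higher, with a median of -0.40. RFC3, a subunit of the clamp loader, was at 53.7, 50.9 and 50.2 CPM in Farage and 165, 173 and 138 CPM in SUDHL6. BUB1B, a checkpoint kinase, stood at 101, 100.3 and 98.2 CPM against 234, 223 and 262 CPM, and the nucleolar gene MYBBP1A at 95.7 ± 6.88 CPM against 206 ± 8.6 CPM. All 3 medians are below a 2-fold difference, and growth rates were not measured. PCNA was the replication gene called higher, at 222, 248 and 229.7 CPM against 145, 168 and 223 CPM (adjusted p = 0.0377) with values that overlapped. It lost the call without each library except SUDHL6 replicate 3, and the count of higher replication genes was 6 without SUDHL6 replicate 3 and 0 without each of the others. Mitosis genes called higher numbered 4 without SUDHL6 replicate 3 and 1 without Farage replicate 2 or 3, and ribosome biogenesis genes called higher numbered 1 without Farage replicate 1 or 3 or SUDHL6 replicate 1 or 2.

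Metabolic lists were balanced. Oxidative phosphorylation had 10 of 36 called higher and 10 lower, and glycolysis and hypoxia genes 10 of 26 in each direction. Over all tested genes the shares were 35.6% higher and 39.8% lower. Single genes differed more: HIF1A, the hypoxia factor, was at 337 ± 5.55 CPM in Farage and 82.6 ± 3.2 CPM in SUDHL6, whereas the hexokinase gene HK2 was at 33.8 ± 0.507 CPM and 110.0 ± 3.6 CPM and VEGFA, a growth factor of vessels, at 16.6 ± 1.1 CPM and 81.5 ± 9.2 CPM. Leaving out 1 Farage library, replicate 1, took the glycolysis genes called lower from 10 to 6.

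Genes of movement and shape set Farage apart. Of 29 cytoskeleton and actin regulators 23 were called higher and 2 lower, with a median of 1.28. FLNA, which crosslinks actin, was at 1238, 1122 and 1107 CPM in Farage and 115, 153 and 173 CPM in SUDHL6. LGALS3, a galactose-binding lectin, stood at 282, 338 and 299 CPM against 5.66, 6.57 and 20.2 CPM. ANXA2, an annexin, was at 65.6 ± 5.88 CPM in Farage and 1.7 ± 2.15 CPM in SUDHL6, with a log2 difference of 4.90 ± 0.46, or 5.51 without replicate 3. S100A10, the partner protein of ANXA2, went the other way at 4.06, 4.01 and 3.51 CPM against 20.0, 17 and 78.8 CPM, and its difference of -2.68 ± 0.51 was -2.0 without that library.

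Among integrins and adhesion genes 12 of 21 were called higher and 8 lower, against 35.6% and 39.8% of all tested genes. ITGB3 and ITGA6, integrin chains uncommon on B cells, were at 35.7 ± 0.415 CPM and 64.1 ± 2.7 CPM in Farage and 0.136 ± 0.118 CPM and 1.97 ± 0.249 CPM in SUDHL6. ITGB2 and ITGAL encode the chains of LFA-1, the main integrin of lymphocytes, and they went opposite ways. ITGB2 was at 171, 161 and 161 CPM in Farage and 3.47, 4.53 and 23.7 CPM in SUDHL6, a log2 difference of 4.29 ± 0.58 that was 5.06 without replicate 3. ITGAL stood at 186, 173 and 181 CPM against 352, 436 and 469 CPM. Of 16 chemokine and migration receptors 11 were called higher and 5 lower. GPR132 was at 53.2, 51.3 and 46.8 CPM in Farage with no read in SUDHL6. CCR6 was at 0.682 ± 0.0425 CPM in Farage against 14.3, 7.4 and 2.46 CPM in SUDHL6. In the family of RGS and G protein genes, which switch such receptors off or on, RGS1 was at 389 ± 19.2 CPM in Farage and 7.35 ± 2.46 CPM in SUDHL6, RGS13 at 94.1 ± 8.86 CPM and 218 ± 29.2 CPM, and RGS18 at 0.0121 ± 0.0209 CPM and 13.9 ± 1.99 CPM. Notch genes were split as well, with 7 of 14 higher and 6 lower, against 35.6% and 39.8% of all tested genes. NOTCH1 was at 82.5, 64.7 and 69 CPM in Farage and 5.28, 4.57 and 6.32 CPM in SUDHL6, and DTX1, a regulator of Notch and a target in B cells, at 284, 277 and 276 CPM and 653, 728 and 565 CPM.

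**Figure D4:**
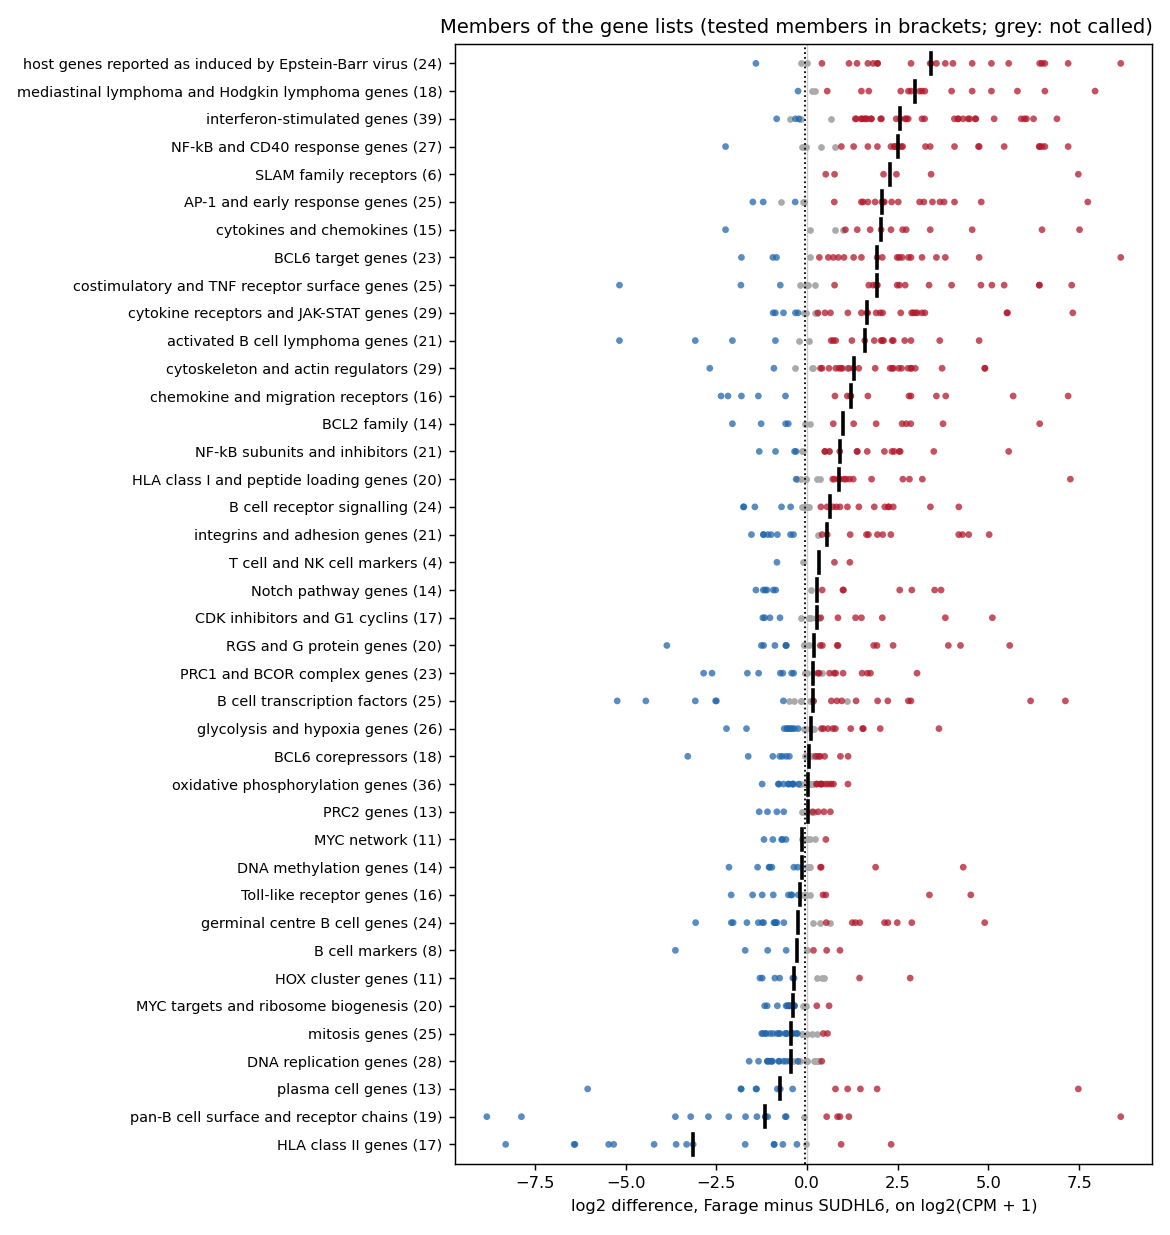
Log2 difference of the tested members of gene lists with at least 4 tested members, Farage minus SUDHL6 on log2(CPM + 1), with red for members called higher in Farage, blue for members called lower, grey for members not called, and a black bar for the list's median. The dotted line is the median of all 11900 tested genes, -0.06; on this scale list medians run from 3.41 for host genes reported as induced by Epstein-Barr virus to -3.14 for HLA class II genes.

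Beyond differences of degree, some genes were detected in 1 line only. The rule was a level of at least 5 CPM in each of the 3 libraries of one line and at most 3 reads in each of the 3 libraries of the other. It was met by 202 genes of Farage, 89 of them with no read in SUDHL6, and by 47 genes of SUDHL6, 12 of them with no read in Farage. The rule is not equal for the lines, since 3 reads equal a mean of 0.183 CPM in SUDHL6 and 0.104 CPM in Farage. A level of 5 CPM in all 3 libraries is also harder to meet where libraries spread, as in SUDHL6. The counts of the lines are therefore not measured alike. Their median level was 17.3 CPM in Farage and 20.5 CPM in SUDHL6, and 190 and 42 of them are protein-coding. The 8 highest in Farage were KCNMA1, ZC3H12C, HOPX, DUSP4, PREX1, FEZ1, IL2RB and TNFRSF9. The first of them, KCNMA1, was at 326, 321 and 328 CPM in Farage with no read in SUDHL6, at least 1770-fold higher with the same floor of 3 reads per library. ZC3H12C, which encodes a ribonuclease of the Regnase family, was at 251, 221 and 254 CPM with no read, at least 1320-fold higher. HOPX, a small homeodomain protein that does not bind DNA, was at 225, 258 and 227 CPM with 1, 0 and 1 reads. PREX1, an activator of RAC, and FEZ1, an adaptor of axonal transport, were at 201 ± 2.23 CPM and 172 ± 7.13 CPM.

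The 8 highest in SUDHL6 were IGLL5, MSH6, CD24, BMP7, SLC25A27, APOD, LRRN3 and PRTG. BMP7 was at 264, 280.4 and 202 CPM in SUDHL6 with 0, 1 and 3 reads in Farage. SLC25A27, a mitochondrial carrier, was at 170.1, 199 and 152 CPM with 1 read in each Farage library. APOD, an apolipoprotein, varied between the SUDHL6 libraries, at 179.8, 135 and 32.2 CPM, and had no read in Farage, with a log2 difference of -6.55 ± 0.56 that was -7.29 without replicate 3. LRRN3 stood at 69.1, 63.7 and 201 CPM and PRTG, an immunoglobulin family protein of the embryo, at 103, 108 and 87.5 CPM. For APOD and CD24 the lowest SUDHL6 value was in replicate 3, and for LRRN3 the highest was.

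Promoter sequence is shown for the genes of highest level among those detected in 1 line only, KCNMA1 and ZC3H12C for Farage and MSH6 and CD24 for SUDHL6, because CG dinucleotides are the sites of DNA methylation, which is known to silence promoters. The rule asked for the first 2 genes per line with an entry, and IGLL5 had none. The 150 bases before the gene start are from RefSeq on GRCh38.p14, with each CG in capitals: KCNMA1 chr10:77637809-77637958 (minus strand), ZC3H12C chr11:110093242-110093391 (plus), MSH6 chr2:47782995-47783144 (plus) and CD24 chr6:106975628-106975777 (minus).
KCNMA1: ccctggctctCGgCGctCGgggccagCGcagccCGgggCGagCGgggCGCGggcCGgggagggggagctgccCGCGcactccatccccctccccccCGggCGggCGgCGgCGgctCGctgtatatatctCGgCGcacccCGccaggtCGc
ZC3H12C: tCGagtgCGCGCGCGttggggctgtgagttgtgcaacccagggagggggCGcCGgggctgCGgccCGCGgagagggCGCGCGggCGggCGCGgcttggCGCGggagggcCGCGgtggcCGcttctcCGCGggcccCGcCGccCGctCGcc
MSH6: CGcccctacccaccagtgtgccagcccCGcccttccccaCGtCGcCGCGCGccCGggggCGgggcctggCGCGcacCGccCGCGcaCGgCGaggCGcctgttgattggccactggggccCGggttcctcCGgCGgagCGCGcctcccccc
CD24: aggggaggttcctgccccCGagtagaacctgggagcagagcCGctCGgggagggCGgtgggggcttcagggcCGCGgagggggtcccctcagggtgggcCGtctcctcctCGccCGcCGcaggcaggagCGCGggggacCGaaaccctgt
They hold 22, 27, 22 and 13 CG, where the median was 14 over 9025 tested genes with an entry, 10 over the 144 genes detected in Farage only and 11 over the 29 detected in SUDHL6 only. Methylation and DNA copy number were not measured, and each of these genes has 1 to 3 other start sites in the table.

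Some genes detected in 1 line only lie side by side. This was looked at after the values were seen, using the order of genes in RefSeq. In Farage 30 of the 202 genes fell in 14 runs of direct neighbours of up to 3 genes, and in SUDHL6 8 of the 47 fell in 3 runs of up to 4 genes. Guanylate-binding genes on chromosome 1 gave the runs GBP3, GBP1 and GBP2 and then GBP4 and GBP5, with GBP7 between them at 0.438 CPM in Farage and 0 in SUDHL6. Means in Farage were 11.6, 34.7, 17, 58.9 and 15.7 CPM in that order. The matrix metalloproteinase genes MMP7 and MMP20 on chromosome 11 were at 62.6 and 52.6 CPM with no read in SUDHL6, beside TMEM123 and BIRC2, which both lines expressed. ABCA9, ABCA6 and ABCA10 on chromosome 17 and CAV1 and MET on chromosome 7 formed further runs in Farage.

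The longest run in SUDHL6 was RCAN2, CYP39A1, SLC25A27 and TDRD6 on chromosome 6, at 14.2, 57, 173.7 and 38.5 CPM in SUDHL6 and at most 0.0347 CPM in Farage. Flanking it, ENPP5 was at 5.53 CPM in Farage and 10.4 CPM in SUDHL6, and ENPP4 at 31.5 and 58.4 CPM. MSH6 and its neighbour FBXO11 on chromosome 2 formed the second run. FBXO11, a substrate receptor of the ubiquitin ligase that degrades BCL6, was at 0.065, 0.0355 and 0 CPM in Farage and 55.4, 50.4 and 47.7 CPM in SUDHL6. On one side the next gene, KCNK12, was at 10.0 CPM in Farage and 7.34 CPM in SUDHL6. On the other side FOXN2 was at 80.6 and 31.6 CPM. Both flanks were expressed in Farage, while MSH6 and FBXO11 had at most 2 reads in a Farage library. The third run was S100Z and CRHBP on chromosome 5, at 9.95 and 8.81 CPM in SUDHL6.

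Differences were not spread evenly over the chromosomes. Chromosome 4 had a median log2 difference of 0.57 over 410 genes, and 33.9% of them were called at least 2-fold higher in Farage against 17.5% of all genes. On chromosome 6 the median was -0.52 over 630 genes, with 32.4% called at least 2-fold lower against 13.6% of all genes. Without the 24 HLA genes the median of chromosome 6 was again -0.52. Chromosomes 19 and 7 followed at -0.42 and -0.39, and 16 at -0.28. The other 17 autosomes lay between -0.18 and 0.15. With median-of-ratios scaling these medians shifted together, to 0.65 for chromosome 4 and -0.44 for chromosome 6. Genes on 1 chromosome are not independent of each other, so these are descriptions of 2 lines.

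**Figure D5:**
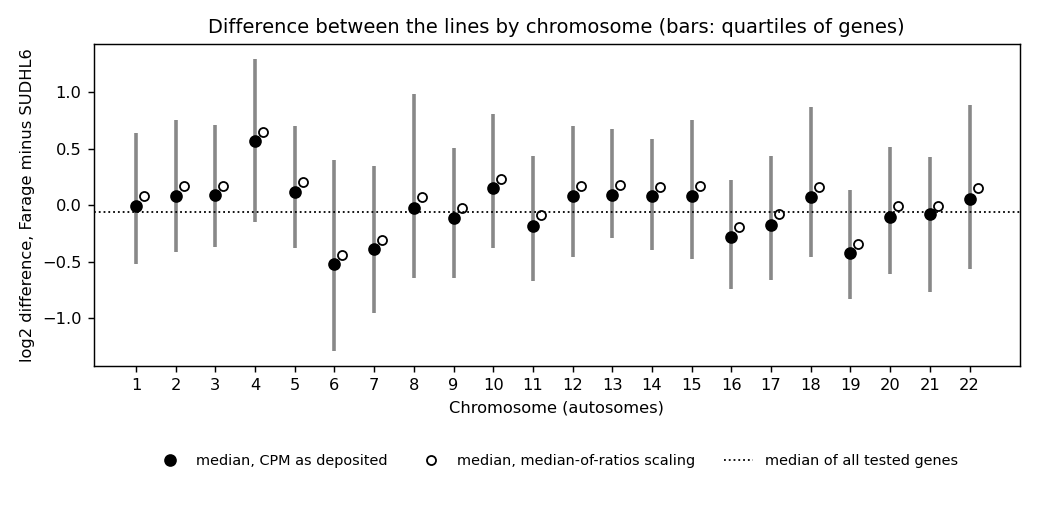
Median log2 difference (Farage minus SUDHL6, on log2(CPM + 1)) of the tested genes of each autosome, with bars from the lower to the upper quartile of its genes; filled circles use CPM as deposited and open circles median-of-ratios scaling, and the dotted line is the median of all tested genes. Chromosome 4 lies highest at 0.57 and chromosome 6 lowest at -0.52.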

How the data were processed

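RNA-seq libraries of the human lines Farage and SUDHL6 after 12 h with DMSO were compared, 3 per line. Per the labels' protocols, a TruSeq RNA kit was used. The authors deposited 1 file per library with CPM for 23250 RefSeq genes. STAR and hg19 are named in the submitters' processing notes, and the label of 1 library names Rsubread. Counting settings, strand and annotation release are not given in these sources, and a gene's reads may include those of an overlapping or antisense gene. The deposited CPM of every library were whole multiples of 1 step (100.0% of values within 0.01 reads), which gave back whole reads. Listed genes held 77.62% to 80.4% of the divisor in these 6 libraries, and 3 reads equal 0.0976 to 0.116 CPM in 5 libraries and 0.321 CPM in SUDHL6 replicate 3.

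Genes with at least 1 CPM in at least 3 of 6 libraries were tested with limma 3.58.1 in R 4.3.3 on log2(CPM + 1), with an intensity trend, no covariate and 4 residual degrees of freedom, two-sided, with Benjamini-Hochberg adjustment over all 11900 genes. The fit was also run on simulated data, with few changed genes and the same spread in both lines. The real data differ in both respects, so that run does not bear out the calls. Replicates of a line were compared first: the chi-square per degree of freedom of their reads was 2.931 to 6.617 in Farage and 15.53 to 26.2 in SUDHL6, so none is a copy of another. Alternatives were a pseudocount of 0.25, no filter, a mean CPM of at least 5, median-of-ratios scaling, a replicate block, the SUDHL4 DMSO libraries added to the fit, edgeR 4.0.16 and DESeq2 1.42.0 on the recovered reads, each library left out in turn, and a fold of at least 2.

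The comparison, the 44 gene lists and the tests were chosen with earlier results of these data known. Genes were named by a rule: BCL6, EZH2, CBX8 and BCOR, the 12 largest called differences per direction where the lines do not overlap and the mean reaches 2 CPM, up to 3 called members per list and direction, the 8 highest of the genes detected in 1 line only, and members not called of the B cell marker and receptor signalling lists. It gave 226 genes, and 56 more were chosen after their values were seen. A few of these genes, and 1 list, are not reported here. Sequences are RefSeq promoters on GRCh38.p14, matched by symbol, with a window of 150 bases before the gene start and both strands searched. Promoters on chromosomes 8, X and Y were left out of the search, and the first listed window of each gene was used. With these left out, 9025 of the tested genes had an entry. Genes of the Y chromosome and the X inactivation transcripts are not reported. The treated libraries and SUDHL4 were otherwise not used.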

Additional observations from a re-analysis of the deposited data

How the results depend on the processing

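The number of genes called, 8966 (4233 higher in Farage and 4733 lower), ranged from 7339 with a mean CPM of at least 5 to 10395 with no filter, and from 8022 to 9622 when each library was left out in turn. A fold of at least 2 left 3705 genes, 2088 higher and 1617 lower. edgeR on the recovered reads called 9012 (4627 higher, 4385 lower), DESeq2 8937 and median-of-ratios scaling 8967, so the 2 directions trade places with the scaling. No pairing of the replicate numbers was found: same-numbered libraries had correlations of their deviations of -0.078, -0.067 and -0.019, and a replicate block gave 8687 calls (4089 higher, 4598 lower). In the counts that follow, a case is 1 gene in 1 alternative. Of the 226 genes named by rule, 10 lost their call in 55 cases, 2 gained one in 2 cases and 5 changed sign in 12 cases. Of the 56 others, 1 lost its call in 2 cases, 2 gained one in 9 cases and 1, RFX5, changed sign in 4 cases. All sign changes were in genes that were not called: BCOR (0.03 with median-of-ratios scaling, 0.02 with edgeR, with DESeq2 and without SUDHL6 replicate 1), BLNK (-0.01 without Farage replicate 2, -0.07 without SUDHL6 replicate 1), PLCG2 (0.08, 0.07 and 0.08 with scaling, edgeR and DESeq2, and from -0.05 to 0.03 when each library was left out), PRKCB (from -0.11 to 0.22 when each library was left out), INPP5D (0.0 with scaling) and RFX5 (0.05, 0.04 and 0.05 with scaling, edgeR and DESeq2, and 0.01 without SUDHL6 replicate 2). BCOR was called without SUDHL6 replicate 3, at -0.17 (adjusted p = 0.0301 by limma). With DESeq2 the mediastinal and Hodgkin lymphoma (4.43) and cytokine (4.33) lists had higher medians than the Epstein-Barr virus list (4.09), the reverse of the order on log2(CPM + 1). List medians near 0 changed sign with a setting: BCL6 corepressors (0.04 to -0.03), Polycomb complex 1 (0.17 to -0.03), HOX genes (-0.36 to 0.03), oxidative phosphorylation (0.03 to -0.03) and glycolysis (0.11 to -0.02). Depth limits genes near 1 read in SUDHL6 replicate 3, where 1 read is 0.107 CPM.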

Other observations

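Further lists showed differences within families. Of 17 cyclin-dependent kinase inhibitor and G1 cyclin genes 7 were called higher in Farage and 4 lower. Over all tested genes the shares were 35.6% and 39.8%, so these counts alone do not set the list apart. CCND2, a cyclin of B cells, was at 4.46, 4.5 and 3.8 CPM in Farage and 0.154, 0.378 and 0.214 CPM in SUDHL6, while RB1, the brake on the cell cycle that these cyclins release, was at 44.8 ± 1.71 CPM and 103 ± 16.8 CPM. CDKN2A, which encodes an inhibitor of CDK4, was at 16.4 ± 1.86 CPM in Farage and 34.7 ± 6.82 CPM in SUDHL6. In the MYC network 5 of 11 were called lower and 1, MGA, higher, and without SUDHL6 replicate 1 the number called higher was 2. Of 25 cancer-testis genes only 2 could be tested, and PRAME had the larger difference, at 7.74, 7.59 and 7.23 CPM in Farage against 0, 0.0378 and 0 CPM.

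Single genes of other lists also differed. In glycolysis ENO2, the neuronal enolase, was at 119 ± 2.04 CPM in Farage and 5.74, 5.66 and 19 CPM in SUDHL6. The glucose transporter gene SLC2A3 was at 29.3 ± 1.72 CPM in Farage and 7.82, 7.4 and 13.9 CPM in SUDHL6. IRAK2 and IRAK1, kinases that act after Toll-like receptors, differed in opposite directions, at 4.51 and -1.24 on the log2 scale. The Notch coactivator genes MAML2 and MAML3 were at 17.6 ± 1.15 CPM and 18.5 ± 1.18 CPM in Farage and 0.455 ± 0.302 CPM and 1.71 ± 0.781 CPM in SUDHL6.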
